A study of Rattus norvegicus with 9 samples.

Results

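The genes described here form the calcium store circuit of the cell. They are the inositol trisphosphate (IP3) receptors Itpr1, Itpr2 and Itpr3, the store sensors Stim1 and Stim2, the plasma membrane channel subunit Orai1, the sarco/endoplasmic reticulum calcium pumps (SERCA) Atp2a2 and Atp2a3, and the plasma membrane calcium pumps (PMCA) Atp2b1 and Atp2b4. They were taken by gene name from the deposited expression table, where each of the 10 names had an entry among 32043 genes. Expression was given as FPKM, fragments per kilobase of transcript with a scaling per library that did not follow total reads, so levels can be set beside each other between genes of a library. All 10 genes passed the filter used for testing, a mean of at least 0.5 FPKM over the 9 libraries, as did 13898 genes of the table.

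IP3 receptors are channels that let calcium out of the endoplasmic reticulum when a cell is stimulated. STIM proteins sense the emptied store and open ORAI channels in the plasma membrane, which is called store-operated calcium entry. SERCA pumps then return calcium to the store and PMCA pumps export it. In chondrocytes, calcium signals of this kind are known to follow mechanical loading.

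RNA was sequenced from knee cartilage of male Sprague–Dawley rats that were 8 weeks old at purchase, with 3 libraries in each of 3 groups. In the control group the left joint capsule was opened and sutured and nothing was removed. In the model group knee osteoarthritis (KOA) was induced by a modified Hulth operation, which destabilises the knee by taking away its medial meniscus and 2 of its ligaments (anterior cruciate and medial collateral), followed by forced daily movement. The SYD group had the same operation and then received Shengyu decoction (SYD), a herbal extract, by gavage for 4 weeks. The labels give no dose for these libraries, and the study's results text names the sequenced group SYD-H, the highest of its doses. That these libraries are SYD was taken from their titles. Their library names begin with CXTB, the study also had a celecoxib arm abbreviated CXB, and the account of sequencing in its methods lists control and model tissue alone, so the identity of the SYD group could not be checked from the files and every SYD value below carries this limit. Tissue was taken 8 weeks after surgery. No library joins a sham operation with the extract, so the effect of SYD alone was not measured. Whether each library came from a different rat is not stated in the sources used here, and p-values measure only the spread between these libraries, which may be technical.

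The libraries differed in make-up, both between and within groups. Recovered reads ranged from 14914121 to 19510537 per library, while mitochondrial genes took 4.05% to 4.86% of reads in control, 39.5% to 90.7% in model and 23.7% to 72.7% in SYD libraries. This left 1744769 to 17373645 non-mitochondrial reads, with the fewest in model 1. The summed level of 12 chondrocyte markers was 484 to 11469 FPKM in control, 194 to 812 FPKM in model and 176 to 1392 FPKM in SYD libraries, so markers of the labelled tissue were present in every library but at very different levels. Markers of blood cells were present too. The 8 B cell markers summed to 277 to 351 FPKM in control, 25.8 to 57.8 FPKM in model and 21.9 to 56.1 FPKM in SYD libraries. The 8 neutrophil markers summed to 2971 to 5679 FPKM in control, 69.2 to 7781 FPKM in model and 523 to 3365 FPKM in SYD libraries, and Ltf was at 0 in all model libraries. The 8 erythroid markers summed to 6563 to 16314 FPKM in control. Among operated libraries this sum was 38222 FPKM in model 1, 42470 FPKM in model 3 and 13582 FPKM in SYD 3, and 296 to 1876 FPKM in the others. The 7 smooth muscle markers summed to 19.3 to 51.2 FPKM in control, 27.1 to 402 FPKM in model and 155 to 553 FPKM in SYD libraries. In bulk tissue, fewer cells of a type and less RNA per cell cannot be told apart. The part of library make-up in the values below was not tested except where a value without the libraries concerned is given.

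In control cartilage the SERCA pumps Atp2a2 and Atp2a3 led the circuit and the IP3 receptors were lowest. Atp2a2 had the highest mean level at 14.3 ± 1.59 FPKM (SD, n = 3), followed by Atp2a3 at 13.7 ± 1.47 FPKM, and these neighbours overlapped in their libraries. Stim1, Atp2b4, Orai1 and Atp2b1 formed the next block with means from 10.7 down to 7.80 FPKM, and each overlapped the next. Stim2 stood apart at 4.65 FPKM. The 3 receptors lay between 2.86 FPKM for Itpr3 and 1.83 FPKM for Itpr2, and their neighbours overlapped. In the model group the spread was so wide that every gene overlapped the next one in the order. There Atp2a2 was still first at 9.27 ± 7.42 FPKM, but Atp2a3 was ninth of 10 at 1.997 ± 1.15 FPKM. In the SYD group Atp2a2, Atp2b1, Atp2b4, Orai1 and Stim2 ran from 13.9 down to 7.10 FPKM, Itpr1, Itpr3, Stim1 and Atp2a3 from 4.68 to 3.85 FPKM, and Itpr2 was last at 1.46 FPKM, with no overlap between Stim2 and Itpr1 or between Atp2a3 and Itpr2. This order is a description of levels.

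**Figure D1:**
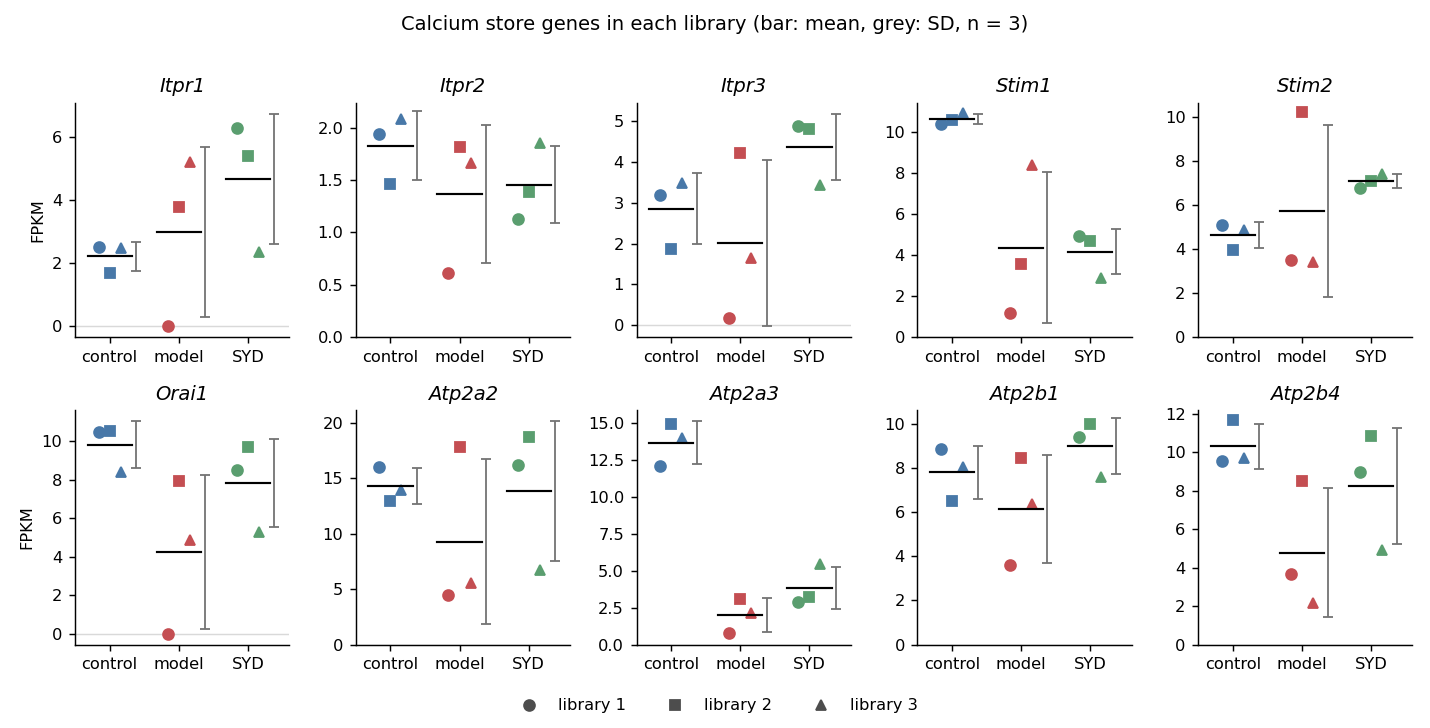
FPKM of the 10 genes in each of the 9 libraries, with the group mean as a black bar and the SD (n = 3) as a grey bracket, each panel on its own linear axis. Atp2a3 lies between 12.1 and 15.0 FPKM in control and at or below 5.47 FPKM in every model and SYD library, whereas most other genes spread widely in the model group.

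The first question was which genes of the circuit differed in operated, untreated joints. When compared with the control group, 3 of the 10 genes met the study's criteria for differentially expressed genes (DEGs), which ask for a log2 fold change beyond 1 in either direction and p under 0.05 before adjustment, and all 3 were lower in the model group. They were Atp2a3, Stim1 and Atp2b4. Over all tested genes 14.7% were DEGs and 11.2% were DEGs lower in the model group, so DEGs at large also lay mostly on the lower side. That side held 75.9% of DEGs as deposited, 99.6% after rescaling to TPM, 84.9% after rescaling to non-mitochondrial genes and 53.7% after quantile normalization, while Atp2a3 was a lower DEG under all of them. At the stricter Benjamini-Hochberg adjusted p under 0.05, Atp2a3 alone was called, where 2.59% of all tested genes were called and 2.35% were called on the lower side. In 9 of the 10 genes the fold change was below 0, with a median of −0.69 beside −0.23 over all tested genes. The exception was Stim2, which was below 0 under both rescalings, and the 3 IP3 receptors were above 0 after quantile normalization. Fold changes are on the scale log2(FPKM + 1), which understates the change of genes with low values, and every test was 2-sided.

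Atp2a3 encodes SERCA3, a pump of the endoplasmic reticulum known from platelets, lymphoid cells and endothelium. It is on the forward strand of chromosome 10 from 57582128 to 57612748 in the deposited table, whose rat genome build is not named in the sources used here (the labels name the human build hg38). Its level was 12.1, 15.0 and 14.0 FPKM in the control libraries, 0.783, 3.07 and 2.14 FPKM in the model libraries and 2.86, 3.22 and 5.47 FPKM in the SYD libraries. The lowest control library was thus above the highest library of either operated group. The model values rested on 31, 882 and 155 reads, beside 3943 to 5995 reads in control. The mean was 6.84 times as high in control as in model, and the log2 fold change was −2.37 with a standard error (SE) of 0.39 (limma, adjusted p = 0.0418). Of all tested genes, 1.71% had a fold change as low or lower. A moderated F test over the 3 groups gave an adjusted p of 0.0337 for Atp2a3 (limma), a call made for 2.32% of tested genes and for no other gene of the circuit. With the libraries over 50% mitochondrial left out, which leaves model 2 as the only model library, its log2 fold change was −1.85. The spread of the model group is not measured there, so effect sizes alone are given for this setting. With the mitochondrial share as a covariate the fold change was −1.12 and no longer met the criteria (limma, adjusted p = 0.397), in a fit that cannot tell group from share. The adjusted call also ended without any one control library (adjusted p = 0.161, 0.162 and 0.192 without control 1, 2 and 3) and without model 3 (limma, adjusted p = 0.0783), with log2 fold changes of −2.45 to −2.30 in these fits. It ended too with a pseudocount of 0.1 (adjusted p = 0.0506), with a mean of at least 1 FPKM (adjusted p = 0.0539) and with the rescaling to non-mitochondrial genes (limma, adjusted p = 0.0522), where the DEG criteria were still met. The same held with the replicate number as a block (limma, adjusted p = 0.254). The B cell marker sum separated control from both operated groups as Atp2a3 did. The 8 platelet and megakaryocyte markers summed to 115 to 360 FPKM in control, 6.26 to 167 FPKM in model and 17.6 to 93.2 FPKM in SYD libraries, with Gp1bb at 0 in all 9, and the sum of 167 FPKM came from model 1, where Atp2a3 was lowest. The 8 endothelial markers summed to 42.1 to 55.1 FPKM in control, 27.1 to 235 FPKM in model and 110 to 147 FPKM in SYD libraries, so control lay below SYD in this sum. The part of the B cell, platelet or endothelial sums in the Atp2a3 difference was not tested.

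Atp2a2 encodes SERCA2, the pump of most cell types and of slow and cardiac muscle. It is on the forward strand of chromosome 12 from 34072683 to 34122101. Its level was 16.01, 12.9 and 13.9 FPKM in control, 4.49, 17.8 and 5.51 FPKM in model and 16.2, 18.7 and 6.71 FPKM in SYD libraries. The groups overlapped, and the 3 lowest values came from the 3 libraries with the highest mitochondrial share, which were also the operated libraries with the highest erythroid marker sums. The part of these sums was not tested. The log2 fold change in model against control was −0.80 with a 95% confidence interval of −2.01 to 0.41 (limma, adjusted p = 0.442), and leaving out the libraries over 50% mitochondrial turned it to 0.31. Without model 2 it met the DEG criteria on the lower side at −1.35 (limma, adjusted p = 0.0180), and with the mitochondrial share as a covariate it met them on the higher side at 1.54 (limma, adjusted p = 0.143). The covariate fit cannot tell group from mitochondrial share.

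Stim1 encodes the main sensor of store filling. It is on the forward strand of chromosome 1 from 156656013 to 156818363. Its level was 10.4, 10.6 and 10.9 FPKM in control, 1.15, 3.57 and 8.40 FPKM in model and 4.93, 4.69 and 2.90 FPKM in SYD libraries. Every operated library was below every control library, with model 3 nearest. The model values rested on 17, 384 and 227 reads. The log2 fold change in model against control was −1.37 (SE 0.55; limma, adjusted p = 0.252), which met the DEG criteria but not the adjusted threshold. Of the 6 libraries left out in turn, it still met them without model 3 (−1.90), and not without model 1 (−0.83), model 2 (−1.38), control 1 (−1.38), control 2 (−1.37) or control 3 (−1.35). With the libraries over 50% mitochondrial left out, and model 2 as the only model library, the fold change was −1.35. The DEG call ended with the mitochondrial share as a covariate at −0.89 (limma, adjusted p = 0.761), with a pseudocount of 0.1 at −1.67 (limma, adjusted p = 0.307) and with no filter on low values at −1.37 (limma, adjusted p = 0.237). A block for the replicate number ended the call as well (limma, adjusted p = 0.386).

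Stim2 encodes the sensor that responds to smaller losses from the store. Its level was 5.11, 3.96 and 4.87 FPKM in control, 3.52, 10.2 and 3.43 FPKM in model and 6.77, 7.11 and 7.42 FPKM in SYD libraries. All SYD libraries were above all control libraries, while the model libraries lay on both sides. The log2 fold change in model against control was 0.11 with a 95% interval of −0.98 to 1.21, the one fold change above 0 in this comparison. With the mitochondrial share as a covariate it met the DEG criteria on the higher side at 1.95 (limma, adjusted p = 0.145). With the libraries over 50% mitochondrial left out it was 1.00, from model 2 alone. The model libraries left out, model 1 and model 3, lay below every control library.

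The upstream sequences of both SERCA and both STIM genes are shown, as in each pair 1 gene met the DEG criteria and the other did not. This also held for the PMCA pair, whose sequences are not shown. They are the 250 bases before the annotated start, read 5′ to 3′ in the direction of the gene, from the RefSeq promoter table on GRCr8, at chr10:58080402-58080651 (forward), chr12:39733269-39733518 (forward), chr1:166067964-166068213 (forward) and chr14:61217081-61217330 (reverse). Capitals mark GC boxes, the letters GGGCGG on either strand, and neighbouring matches may overlap.
Atp2a3: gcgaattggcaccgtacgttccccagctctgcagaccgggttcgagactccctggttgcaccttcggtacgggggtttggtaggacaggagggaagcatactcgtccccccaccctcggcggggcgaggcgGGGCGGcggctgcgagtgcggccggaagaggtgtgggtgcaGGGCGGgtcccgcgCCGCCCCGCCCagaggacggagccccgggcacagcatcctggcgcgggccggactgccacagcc
Atp2a2: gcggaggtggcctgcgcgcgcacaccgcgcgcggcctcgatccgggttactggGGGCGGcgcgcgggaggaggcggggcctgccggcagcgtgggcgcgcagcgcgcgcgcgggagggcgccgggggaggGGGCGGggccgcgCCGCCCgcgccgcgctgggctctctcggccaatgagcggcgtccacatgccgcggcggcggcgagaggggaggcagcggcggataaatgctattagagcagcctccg
Stim1: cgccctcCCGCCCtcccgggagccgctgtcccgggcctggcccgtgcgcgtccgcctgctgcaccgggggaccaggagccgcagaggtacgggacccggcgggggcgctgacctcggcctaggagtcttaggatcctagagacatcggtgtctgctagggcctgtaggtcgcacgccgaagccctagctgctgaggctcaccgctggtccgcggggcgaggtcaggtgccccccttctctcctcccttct
Stim2: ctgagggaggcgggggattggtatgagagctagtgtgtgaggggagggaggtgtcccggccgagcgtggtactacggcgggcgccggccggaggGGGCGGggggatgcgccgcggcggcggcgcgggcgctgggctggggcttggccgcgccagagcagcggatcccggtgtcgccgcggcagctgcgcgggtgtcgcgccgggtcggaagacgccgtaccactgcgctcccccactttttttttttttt
All 10 genes had an entry in the promoter table. The GC box occurred 4 times before Atp2a3, 3 times before Atp2a2 and once before each of Stim1 and Stim2, and 30.5% of the 33469 promoters in the table held at least 1. GC content was 72.4% for Atp2a3, 80% for Atp2a2, 72% for Stim1 and 72.4% for Stim2, against a median of 51.2% over the table. The sequences of both members of the SERCA and STIM pairs were thus GC-rich. The PMCA pair differed. Before Atp2b4 no GC box was found and the GC content was 46.4%, while Atp2b1 had 3 GC boxes and 72.8%. The TATA box letters TATAAA occurred in none of the 10 windows and in 12.9% of all promoters. A match is a description of letters and no binding was measured.

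Orai1 encodes the pore subunit of the store-operated channel. Its level was 10.5, 10.5 and 8.40 FPKM in control, 0, 7.91 and 4.87 FPKM in model and 8.53, 9.70 and 5.29 FPKM in SYD libraries. All model libraries were below all control libraries, but the value of 0 in model 1 rested on a shallow nuclear read depth, where a count of 0 allows up to 0.621 FPKM (3 reads, counting error only). The log2 fold change of −1.53 had an SE of 0.82 and a 95% interval of −3.52 to 0.47, and did not meet the DEG criteria (limma, adjusted p = 0.376). Without model 1 it was −0.57 (limma, adjusted p = 0.243), and without model 2 it was −2.15 and met the criteria (limma, adjusted p = 0.143). The mitochondrial share as a covariate turned it to 1.60 (limma, adjusted p = 0.578). Leaving out the libraries over 50% mitochondrial, with model 2 as the only model library, gave −0.27.

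Atp2b4 encodes PMCA4, a pump of the plasma membrane. It is on the reverse strand of chromosome 13 from 45156146 to 45255246. Its level was 9.53, 11.7 and 9.73 FPKM in control, 3.69, 8.53 and 2.14 FPKM in model and 8.96, 10.8 and 4.93 FPKM in SYD libraries. The model libraries lay below the control libraries, model 2 narrowly so. The log2 fold change in model against control was −1.12 (SE 0.45; limma, adjusted p = 0.253). This call ended when the libraries over 50% mitochondrial were left out, where the fold change was −0.24. It also ended with the rescaling to non-mitochondrial genes (−1.50), with quantile normalization (−0.97), with voom on the recovered reads (−0.86) and with the mitochondrial share as a covariate (0.57). Of single libraries left out, the call held without model 2 (−1.55) and not without model 1 (−1.04), model 3 (−0.75), control 1 (−1.17), control 2 (−1.03) or control 3 (−1.15).

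Atp2b1 encodes PMCA1, the pump found in nearly all cells. Its level was 8.87, 6.48 and 8.05 FPKM in control, 3.59, 8.44 and 6.36 FPKM in model and 9.42, 10.01 and 7.58 FPKM in SYD libraries. The groups overlapped, and the log2 fold change in model against control was −0.36 with a 95% interval of −1.22 to 0.51 (limma, adjusted p = 0.628).

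The 3 IP3 receptors had low levels and none met the DEG criteria. Itpr1, the receptor best known from neurons, was at 2.49, 1.69 and 2.48 FPKM in control, 0, 3.76 and 5.19 FPKM in model and 6.28, 5.39 and 2.36 FPKM in SYD libraries. The value of 0 in model 1 allows up to 0.0823 FPKM, below every other library. Itpr2, a receptor with high sensitivity to IP3, ranged from 1.46 to 2.09 FPKM in control, 0.610 to 1.82 FPKM in model and 1.13 to 1.86 FPKM in SYD libraries. Itpr3 ranged from 1.87 to 3.50 FPKM in control, 0.177 to 4.22 FPKM in model, where the lowest value rested on 6 reads, and 3.44 to 4.89 FPKM in SYD libraries. For all 3 receptors the model libraries overlapped the control libraries. Their log2 fold changes in model against control were −0.05 for Itpr1, −0.30 for Itpr2 and −0.58 for Itpr3, with adjusted p from 0.646 to 0.980 (limma).

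With 4 genes lying wholly below control in the model group (Stim1, Orai1, Atp2a3 and Atp2b4), the share of the circuit without overlap can be set beside the 20% of tested genes that lay wholly below control and the 8.65% wholly above. For a single gene the exact permutation test over 3 against 3 libraries cannot go below p = 0.1.

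**Figure D2:**
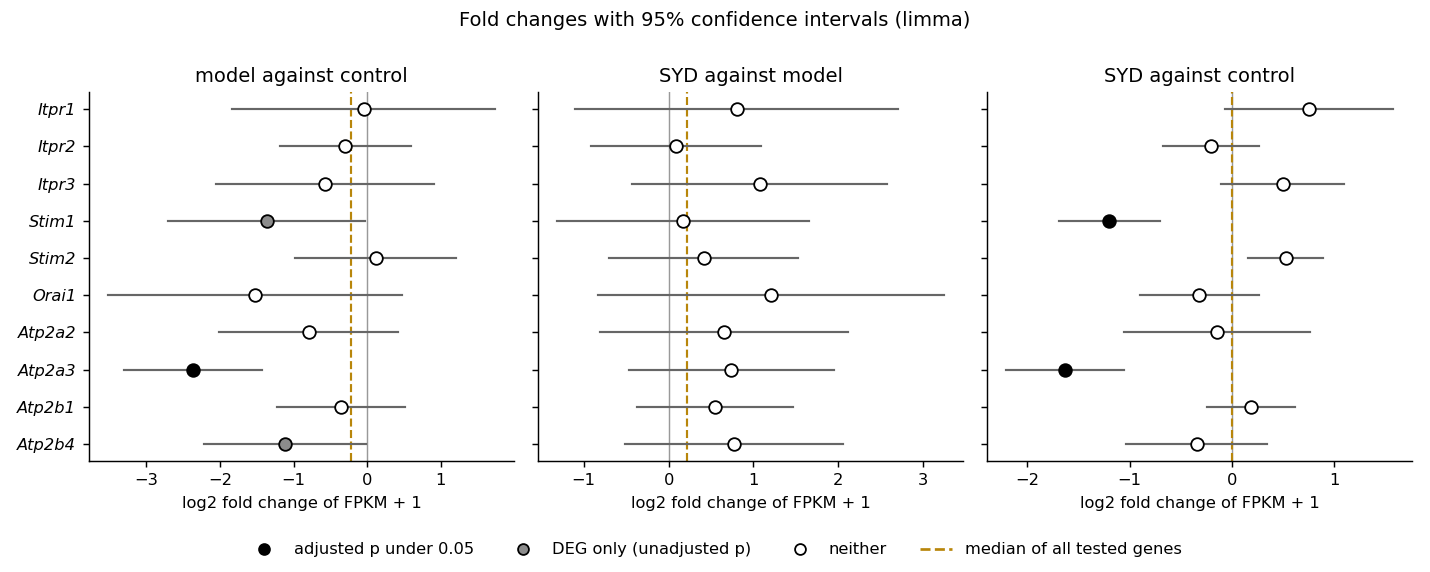
Log2 fold changes of FPKM + 1 for the 10 genes in the 3 comparisons, with 95% confidence intervals from limma and the median of all tested genes as a dashed line. Only Atp2a3 passes the adjusted threshold in model against control, no gene is called in SYD against model, and Atp2a3 and Stim1 are called in SYD against control.

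The second question was whether the extract moved the circuit in operated joints. When compared with the model group, no gene of the 10 met the DEG criteria in the SYD group, none had an unadjusted p under 0.05 and none passed the adjusted threshold (limma). Over all tested genes 4.15% were DEGs, and with the same tool 0 genes passed the adjusted threshold while 731 (5.26%) had an unadjusted p under 0.05. No gene of the circuit had SYD libraries wholly above or below the model libraries, a pattern seen in 7.89% (above) and 3.17% (below) of tested genes. All 10 fold changes were above 0, with a median of 0.69 beside 0.22 over all tested genes, but Itpr2 and Stim1 were below 0 after quantile normalization. DEGs over all tested genes were lower in SYD for 12.8% of them as deposited and for 39.1% after quantile normalization. The comparison shares its model libraries with the first one, so their fold changes are not independent.

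The largest of these log2 fold changes was 1.21 for Orai1, whose 95% interval ran from −0.83 to 3.25, followed by 1.07 for Itpr3 with an interval of −0.43 to 2.58. Without model 1, where Orai1 had 0 reads, they were 0.25 and 0.52. For Atp2a3 it was 0.74 with an interval of −0.47 to 1.94, and for Stim1 it was 0.17 with an interval of −1.31 to 1.65. These intervals include no change as well as changes of more than 1 on the log2 scale, so the libraries do not show that SYD and model joints were alike. Without model 2, the model library with the lowest mitochondrial share, Itpr3 and Atp2b4 met the DEG criteria with log2 fold changes of 1.59 and 1.21.

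The third comparison set treated, operated joints against control. When compared with the control group, Atp2a3 and Stim1 were DEGs in the SYD group, both lower, while 16.5% of all tested genes were DEGs and 9.22% were DEGs on the lower side. That side held 56.0% of DEGs as deposited and 97.9% after rescaling to TPM. Both also passed the adjusted threshold, as did 17.3% of all tested genes and 9.57% on the lower side. These were also the 2 genes whose SYD libraries lay wholly below control, as 22.2% of tested genes did. The log2 fold change was −1.63 (SE 0.23) for Atp2a3, with an adjusted p of 0.0133, and −1.20 (SE 0.20) for Stim1, with an adjusted p of 0.0174 (limma). The control mean was 3.55 times the SYD mean for Atp2a3 and 2.56 times for Stim1. With all 9 libraries in one fit, or with the replicate number as a block, neither passed the adjusted threshold. Without control 1, 2 or 3 the adjusted p was 0.0636, 0.0687 and 0.0911 for Stim1, and without control 2 or 3 it was 0.0574 and 0.0735 for Atp2a3 (limma), while both remained DEGs in all 6 fits that left out 1 library. With the mitochondrial share as a covariate the Stim1 call ended at −0.69 (limma, adjusted p = 0.0577), and Atp2a3 kept it at −2.24.

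Stim2 went the other way in level, with all SYD libraries above all control libraries and a log2 fold change of 0.52 (SE 0.15). Its adjusted p of 0.0627 missed the threshold (limma). Lying wholly above control was found for 20.3% of tested genes. For Itpr1 the log2 fold change was 0.75 with a 95% interval of −0.07 to 1.58. The other 6 genes had fold changes between −0.34 for Atp2b4 and 0.50 for Itpr3, and each of their 95% intervals included 0.

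The next values ask about the make-up of each gene family within a library, which does not depend on how libraries were scaled against each other. Shares of the family's summed FPKM were used. Stim1 made up 67.1% to 72.8% of STIM expression in control, 24.6% to 71.0% in model and 28.1% to 42.1% in SYD libraries. Control and SYD libraries did not overlap, with mean shares of 69.7% ± 2.90 and 36.7% ± 7.48 (SD, n = 3), and the 2-sided exact permutation test gave p = 0.1, the smallest this design allows. Among model libraries model 3 lay inside the control range and the other 2 below it (exact permutation p = 0.3).

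Among SERCA genes, Atp2a3 held 21.7% to 48.8% in control, 0.660% to 7.67% in model and 3.44% to 12.9% in SYD libraries. The skeletal muscle pump Atp2a1 weighs on this share. Its level was 27.6, 4.84 and 0.748 FPKM in control, 113, 19.1 and 134 FPKM in model and 3.15, 71.8 and 82.5 FPKM in SYD libraries. Skeletal muscle markers, 10 of 12 of which were in the table, summed to 21.0 to 343 FPKM in control, 20.6 to 984 FPKM in model and 32.3 to 1203 FPKM in SYD libraries. Taken without Atp2a1, the ratio of Atp2a2 to Atp2a3, chosen after the values were seen, was 0.861 to 1.33 in control, 2.57 to 5.81 in model and 1.23 to 5.80 in SYD libraries. Model libraries lay above control libraries in this ratio, and SYD 3 lay inside the control range.

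Among PMCA genes, Atp2b1 held 35.7% to 48.1% in control, 49.3% to 67.4% in model and 47.8% to 60.6% in SYD libraries. Model and control did not overlap (exact permutation p = 0.1). The neuronal pumps Atp2b2 and Atp2b3 averaged at most 0.310 FPKM in any group. The share of Orai1 among ORAI genes was 52.8% to 62.8% in control, 0% to 69.8% in model and 57.2% to 72.8% in SYD libraries, so the groups overlapped (exact permutation p = 0.8 for model against control). The share of Itpr1 among IP3 receptors was 30.7% to 33.7% in control, 0% to 60.9% in model and 30.8% to 51.1% in SYD libraries, also with overlap. Over the 5 families and 3 comparisons, 15 shares were tested, and with 3 libraries a group none could reach p under 0.05.

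**Figure D3:**
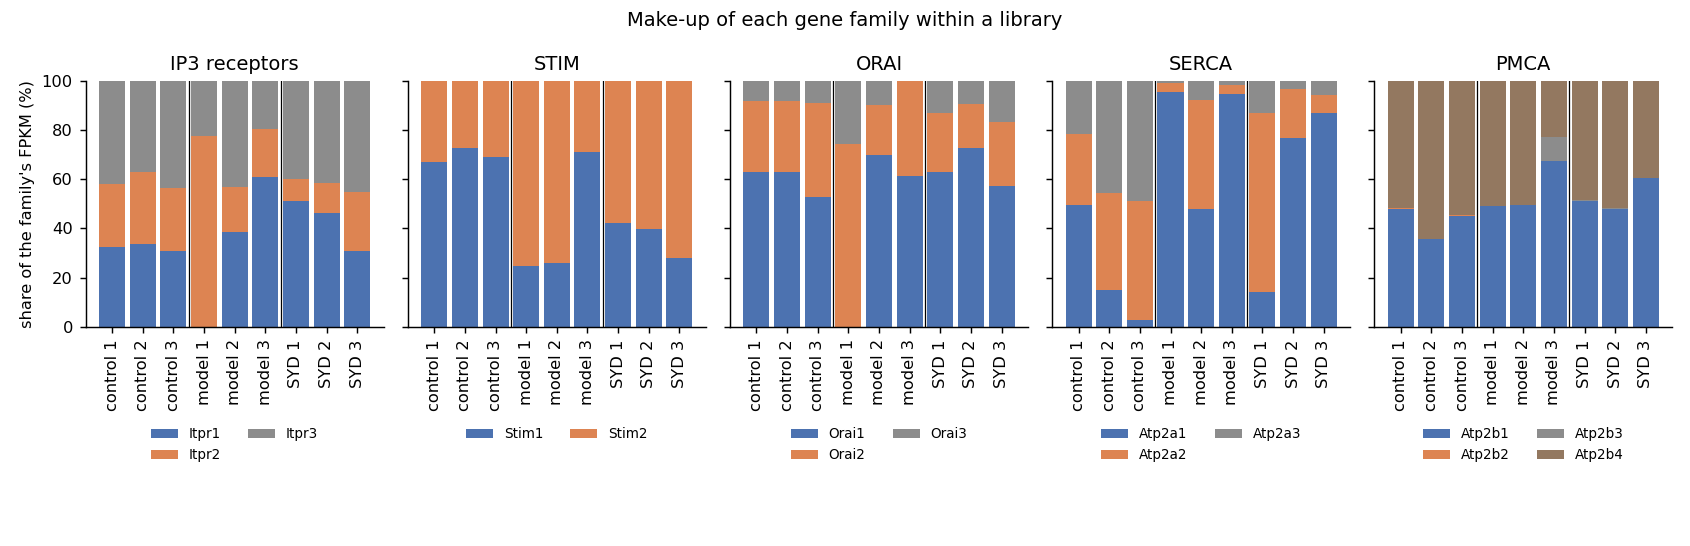
Share of each family's summed FPKM held by its members in each library, in percent, as stacked bars with black lines between the groups. Stim1 holds 67.1% to 72.8% of STIM expression in control and 28.1% to 42.1% in SYD libraries, and the SERCA panel shows Atp2a1 reaching 95.6% in the model group.

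Values beside library make-up were laid out for the 3 DEGs and Atp2a2. Atp2a2 and Atp2b4 were lowest in the 3 libraries over 50% mitochondrial, at 4.49 to 6.71 FPKM and 2.14 to 4.93 FPKM. Atp2a3 was already low in SYD 1, whose mitochondrial share of 23.7% was the lowest of the operated joints, at 2.86 FPKM. Stim1 was at 4.93 FPKM in the same library, and at its highest operated value in model 3, whose mitochondrial share was 81.3%. Libraries of the same group share an operation and a treatment, so these 9 points are no independent test of either measure.

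**Figure D4:**
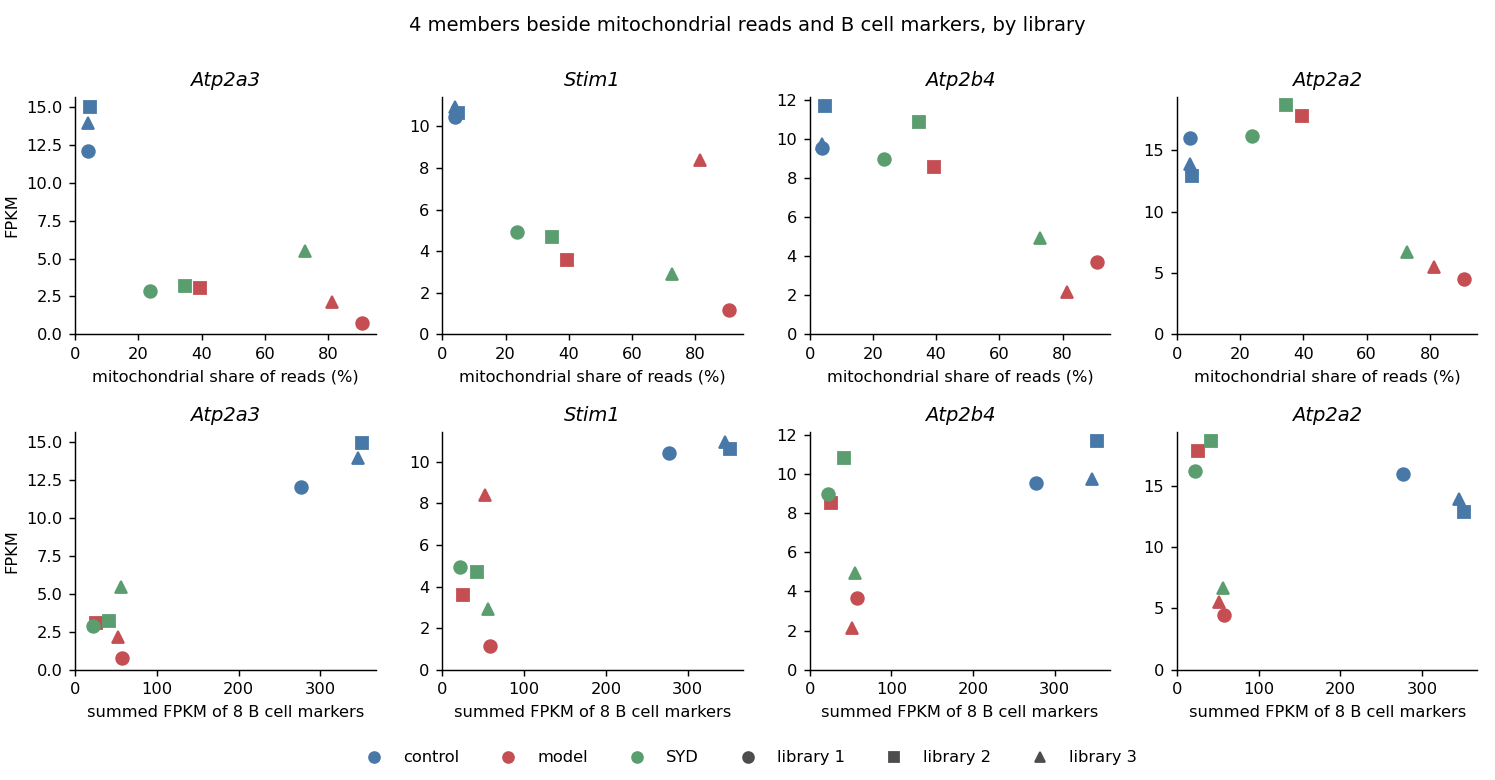
FPKM of Atp2a3, Stim1, Atp2b4 and Atp2a2 against the mitochondrial share of reads (top, percent) and against the summed FPKM of 8 B cell markers (bottom), 1 point per library. Atp2a2 and Atp2b4 are lowest in the 3 libraries over 50% mitochondrial, while Atp2a3 lies below control in every operated library.

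The genes most like each DEG were those with the smallest root mean square difference in log2(FPKM + 1) over the 9 libraries, after each gene's mean was taken off. For Atp2a3 they were Ccr2 (0.207), Tmem131l (0.214) and Bard1 (0.238), against a median of 1.14 over all tested genes. For Stim1 they were Iws1 (0.196), Haspin (0.205) and Setd1b (0.226), against a median of 0.959. For Atp2b4 they were Tcn2 (0.155), Dip2b (0.173) and Rtn3 (0.188), against 0.812. Within the circuit the closest pairs were Itpr2 with Atp2b1 at 0.283 and Atp2a2 with Atp2b4 at 0.304, and the farthest pair was Itpr1 with Atp2a3 at 1.29.

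The wider pathway held DEGs in both directions. Of 79 other genes in 6 lists of calcium handling, 67 were tested, and in model against control 3 were DEGs higher and 2 lower, with none past the adjusted threshold (limma). Over all tested genes 3.55% were DEGs higher and 11.2% lower. The DEGs, some named after their values were seen, were Atp2a1, Septin4 and Rcan2 on the higher side and Orai2 and Plcg2 on the lower side. Orai2, the partner channel subunit, was at 5.26 ± 0.694 FPKM in control and 2.15 ± 1.02 FPKM in model (SD, n = 3), with a log2 fold change of −1.04. Plcg2, a phospholipase C that makes IP3 in blood cells, was at 13.2 ± 0.796 and 4.75 ± 2.42 FPKM, with a log2 fold change of −1.41. In SYD against model 2 genes were DEGs higher, Plcd1 and Nfatc1, and none lower, beside 3.62% higher and 0.532% lower over all tested genes. In SYD against control 7 were DEGs higher and 1 lower, and 8 higher and 2 lower passed the adjusted threshold. Over all tested genes 7.25% were DEGs higher and 9.22% lower, and 7.75% higher and 9.57% lower passed the adjusted threshold.

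By list, the partners of store-operated entry had 1 DEG higher and 1 lower of 10 tested in model against control, where 3.55% and 11.2% of all tested genes were. The leading genes of this list were Saraf, which limits store-operated entry, and Tmco1, a calcium release channel of the endoplasmic reticulum. Saraf was at 16.8 ± 0.867 FPKM in control, 9.53 ± 5.55 FPKM in model and 17.9 ± 3.22 FPKM in SYD libraries (SD, n = 3), and Tmco1 at 10.004 ± 0.183, 10.6 ± 6.78 and 13.1 ± 1.06 FPKM. Neither was called in any comparison. The other pumps and their regulators had 1 DEG higher of 6 tested, Atp2a1. Bsg, a chaperone of plasma membrane pumps, was at 83.4 ± 25.3, 40.7 ± 24.7 and 84.2 ± 21.7 FPKM in the same order and was not called.

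Of 14 tested inputs and regulators of the IP3 receptors, none was a DEG higher and 1 was lower in model against control, beside 3.55% higher and 11.2% lower over all tested genes. Plcg1, the phospholipase C of most tissues, was at 8.84 ± 1.95 FPKM in control, 18.9 ± 6.90 FPKM in model and 23.3 ± 4.37 FPKM in SYD libraries (SD, n = 3). It was called in SYD against control, where 17.3% of all tested genes passed the adjusted threshold, with a log2 fold change of 1.31 (limma, adjusted p = 0.0178), and Ahcyl1, an inhibitor of the receptors, passed the adjusted threshold there with 0.45 (limma, adjusted p = 0.0466). Plcg2 was called lower in that comparison at −1.65 (limma, adjusted p = 0.00793), and the phospholipase C genes Plcb4 at 0.86 and Plcb1 at 0.59 passed the adjusted threshold on the higher side (limma, adjusted p = 0.0223 and 0.0338). None of 15 tested ryanodine receptors, exchangers and store buffers was a DEG in any comparison, nor was any of 9 tested genes of mitochondrial calcium uptake. Calr, the main calcium buffer of the store, was at 161 ± 29.8, 106 ± 31.7 and 160 ± 3.32 FPKM, and the store chaperone Hspa5 at 74.5 ± 15.8, 44.6 ± 15.3 and 80.8 ± 15.2 FPKM in control, model and SYD libraries.

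For mitochondrial uptake, Smdt1, a subunit of the uniporter, was at 11.4 ± 1.59, 16.2 ± 4.55 and 8.98 ± 2.54 FPKM, and the chaperone Hspa9 at 20.1 ± 1.00, 17.5 ± 8.56 and 14.9 ± 4.54 FPKM in the same order (SD, n = 3). The calcineurin and NFAT list, which lies downstream of store-operated entry, had 1 DEG higher of 13 tested in model against control, Rcan2, and 3 higher in SYD against control. These were Nfatc4 at 1.35, Rcan1 at 1.24 and Rcan2 at 1.32, all past the adjusted threshold (limma, adjusted p = 0.0105, 0.0171 and 0.0443). Over all tested genes 3.55% were DEGs higher in the first of these comparisons, and in the other 7.25% were DEGs higher and 7.75% passed the adjusted threshold on the higher side. The calmodulin gene Calm2 had 2 entries in the table, so its reads may be split between them.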

How the data were processed

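RNA-seq was done on 9 cartilage libraries. The authors deposited FPKM per gene in 1 table, the only unit used here. The labels' processing notes name HISAT2 2.0.5 and the human build hg38, although the table holds rat identifiers. The counter, annotation and rat build are not given in the sources used here. The labels' extraction text mentions retina, and photoreceptor markers summed to at most 3.50 FPKM. FPKM steps gave whole reads for 100% of values in each library (tolerance 0.1), and 1 read on 1 kb of transcript was worth 0.0254 to 0.275 FPKM. The deposited values thus follow a scaling other than total reads.

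Groups came from the sample titles. The descriptions pair these with library names that are the table's columns, NOR for control, MOD for model and CXTB for SYD, a name that does not itself show the SYD group. Genes with a mean of at least 0.5 FPKM were tested as log2(FPKM + 1) with limma 3.58.1 in R 4.3.3 (trend, only the 2 groups compared, 2-sided, Benjamini-Hochberg adjustment). Shares were compared by exact permutation. The DEG criteria came from the study's methods. The main limma fit was also run on simulated data in which the compared groups had equal spread, unlike these libraries. The permutation test and the other settings were not simulated. voom on the recovered reads called 3275 DEGs in model against control. The members and lists were chosen with earlier results of these data known. The rule for named genes took the members, their family partners, the 2 highest genes of each list, and the 3 most similar genes for each DEG. The other list genes were named after their values were seen. Some genes of the lists are not reported here.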

Additional observations from a re-analysis of the deposited data

How the results depend on the processing

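Each comparison was recomputed with 11 other settings, of which the mitochondrial share as a covariate and the omission of libraries over 50% mitochondrial were chosen after seeing the data, and without each of its 6 libraries. In fits against control the covariate cannot be told apart from group, as the shares did not overlap. In model against control Atp2a3 met the DEG criteria without each library in turn (−2.63 to −2.03; limma, adjusted p 0.0117 to 0.192). Leaving aside the fit with model 2 as the only model library, it also met them in every other setting but the covariate. Relative to the median of all tested genes, which lay at −0.23 as deposited, −2.60 after rescaling to TPM, −0.64 after rescaling to non-mitochondrial genes and 0.04 after quantile normalization, the fold change of Atp2a3 was −2.39 to −2.10, that of Stim1 −1.36 to −1.14 and that of Atp2b4 −1.16 to −0.86. Orai1 and Atp2a2, not DEGs as deposited, were also below it, at −1.87 to −1.17 and −0.98 to −0.46. Stim2 was above it at 0.15 to 0.54, and Itpr1, Itpr2, Itpr3 and Atp2b1 lay on both sides.

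In model against control TPM gave 10 DEGs among the circuit, 8 of them past the adjusted threshold, and 10445 DEGs over all genes. The adjusted count of 1 became 0 with a pseudocount of 0.1, a mean of at least 1 FPKM, the non-mitochondrial scaling or the covariate, and 3 (Stim1, Stim2 and Atp2a3) with libraries over 50% mitochondrial left out, where all genes gave 3302 DEGs. voom gave 3275. In SYD against model all genes gave 577 DEGs, but 1220 with all 9 libraries in one fit, 1078 with voom and 350 with the covariate. In SYD against control TPM gave 5 and 6029 DEGs among the circuit and all genes, the covariate gave 3508 over all genes, and all 9 libraries in one fit gave 0 adjusted calls among the circuit in place of 2.

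Without 1 library, model against control gave 1 to 4 DEGs among the circuit (4 without model 2), 0 to 3 adjusted calls and 1309 to 3344 DEGs over all genes. SYD against model gave 0 to 2 (2 without model 2), 0 and 315 to 2495. SYD against control gave 2 to 3 (3 without SYD 3), 0 to 3 (0 without control 2 or 3) and 1788 to 2603.

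Replicate numbers did not pair the libraries (correlations of same-numbered deviations −0.27 to 0.19). With the replicate number as a block, model against control gave 1 DEG among the circuit (Atp2a3, while Stim1 and Atp2b4 lost the call) and 0 adjusted calls, and SYD against control 0 adjusted calls.

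In model against control, log2 fold changes of the opposite sign were Stim2 −2.44 with TPM, Stim2 −0.11 with the non-mitochondrial scaling, Itpr1 0.36, Itpr2 0.25, Itpr3 0.018 with quantile normalization, Itpr3 0.11 with voom, Itpr1 1.80, Itpr2 0.48, Itpr3 1.84, Orai1 1.60, Atp2a2 1.54, Atp2b1 0.76, Atp2b4 0.57 with the covariate and Itpr1 0.57, Itpr2 0.00028, Itpr3 0.46, Atp2a2 0.31, Atp2b1 0.11 with libraries over 50% mitochondrial left out. In SYD against model, log2 fold changes of the opposite sign were Itpr2 −0.48, Stim1 −0.074 with quantile normalization, Itpr2 −0.27, Stim2 −0.17 with voom, Stim1 −0.094, Atp2a2 −0.19 with the covariate and Itpr2 −0.32, Stim2 −0.50, Atp2a2 −0.033, Atp2a3 −0.011 with libraries over 50% mitochondrial left out. In SYD against control, log2 fold changes of the opposite sign were Itpr1 −0.42, Itpr3 −0.77, Stim2 −0.86, Atp2b1 −1.26 with TPM, Orai1 0.24, Atp2a2 0.91, Atp2b4 0.36 with the covariate and Atp2a2 0.27 with libraries over 50% mitochondrial left out. Without 1 library the sign turned for Itpr1 in model against control (−0.55 to 0.76), Stim2 in model against control (−0.33 to 0.34), Itpr1 in SYD against model (−0.012 to 1.30), Itpr2 in SYD against model (−0.17 to 0.24), Stim1 in SYD against model (−0.37 to 0.70) and Atp2a2 in SYD against control (−0.40 to 0.27). The causes of these changes were not tested. Depth limits model 1 most, where Orai1 and Itpr1 had 0 reads.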
